A study of Mus musculus with 38 samples.

Results

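The DNA transposons of the mouse genome were followed as a class of repeat copies. Signal of nuclear envelope proteins over them was profiled in naive mouse embryonic stem (mES) cells and in epiblast-like cells (EpiLCs). The members were all annotated repeat copies whose class was DNA, without the subfamilies FordPrefect and Tigger17d, and comparisons were made by the family each copy is assigned to. This gave 164164 of 3793386 transposable element (TE) copies, 4.33% of all, in 301 subfamilies and 21 families, while 543 DNA copies of the left-out subfamilies were set aside.

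DNA transposons move by a cut-and-paste route, in which a transposase binds the terminal inverted repeats of an element, excises it and inserts it elsewhere. The mouse copies belong mainly to the hAT and Tc1/mariner superfamilies, and most are short, non-autonomous fossils that no longer encode a working transposase. The inner nuclear membrane holds chromatin through proteins such as the lamin B receptor (LBR) and LAP2B, a product of Tmpo, and through the lamin filaments beneath it, and the stretches of chromatin bound there are called lamina-associated domains (LADs).

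CUT&RUN, in which an antibody directs a nuclease to cut the DNA beside its target, was run with antibodies to LAP2B and lamin B1 (LMNB1) and with an immunoglobulin control (IGG). LAP2B was profiled in 8 groups: wildtype (WT), LBR knockout (LBRKO), lamin triple knockout (TKO, lacking Lmna, Lmnb1 and Lmnb2) and the quadruple knockout of the lamins and LBR (QKO), each as naive mES cells and as EpiLCs. LMNB1 and IGG were profiled in WT cells only, and every group had 3 libraries. Naive cells were kept in 2i and LIF, EpiLCs were made from them with FGF and activin A, and both were collected at 48 h.

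The groups are limited as models in several ways. The WT and TKO cells are separate lines from littermates, the TKO line has an abnormal karyotype, a minority of the WT cells carry extra or lost chromosomes, and the QKO cells are a single clone derived from the TKO line. Libraries of a group were made from portions of cells, so the p-values measure the spread between libraries, which may be technical. CUT&RUN reads DNA and not RNA, so neither the cell types nor the knockouts can be checked by expression here. In WT EpiLCs the authors found LAP2B signal both inside and outside LADs, and they did not take it as a stand-in for LADs there. EpiLC values below therefore describe LAP2B signal and not LAD contact alone.

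All values are signal per copy on a scale that the authors set by spiked-in yeast DNA. Whole reads recovered from the steps of that scale gave a median of 8 to 20 reads per DNA copy in the LAP2B libraries, 18 to 22 in the LMNB1 libraries and 8 to 28 in the IGG libraries. Copies at 0 made up 0.207% to 4.39% of DNA copies in the LAP2B libraries. The authors computed coverage in bins that are wider than most of these short copies, so the value of a copy also reads the DNA beside it. Of the DNA copies, 53.5% had the same values as a neighbour in all 36 libraries, so copies are not independent and every test below was run over libraries.

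The class was dominated by a few families. hAT-Charlie, whose short MER and URR1 elements were mobilised by Charlie transposases, had 105168 copies, or 64.1% of the DNA copies. TcMar-Tigger, relatives of the pogo and Tc1/mariner transposons, had 27678 copies, or 16.9%. hAT-Tip100 followed with 13470 copies, hAT-Ac with 4622, copies of the DNA class with no family beyond "DNA" (here, unclassified DNA) with 3495 and hAT-Blackjack with 3471. TcMar-Tc2 had 1700, copies placed in hAT with no finer family (here, unassigned hAT) 1185, TcMar-Mariner 1113 and hAT-Tag1 594. The unclassified and unassigned groups hold many ancient elements, such as the Eulor, UCON and MER121 repeats, that are conserved well beyond mammals.

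In WT naive mES cells the share of DNA copies with strong LMNB1 over IGG lay between those of LINE and SINE copies. With LMNB1 divided by IGG, which should cancel differences in the size of the copies, 24.4% of the DNA copies lay in the top quartile of all TE copies, against 38.5% of LINE, 24.6% of LTR and 16.7% of SINE copies. By LMNB1 alone, which may depend on the size of a copy, the DNA share was 20.7%. Over IGG the families ranged from 23.2% of hAT-Charlie copies to 28.1% of unassigned hAT, 29.1% of hAT-Ac and 32.9% of unclassified DNA copies. These shares describe the mean of the WT libraries and carry no test, since neighbouring copies share values.

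The spike-in scaled LAP2B signal over the DNA transposons fell with loss of the lamins. In naive mES cells the mean signal per copy was 0.656 ± 0.157 in WT (SD, n = 3) and, in the mutants, 0.631 ± 0.0874 (LBRKO), 0.309 ± 0.0805 (TKO) and 0.182 ± 0.0140 (QKO). The TKO and QKO libraries all lay below all WT libraries, and the LBRKO libraries overlapped them. The genotypes differed (p = 0.000584) when the F statistic was set against all ways of assigning the 12 libraries to 4 genotypes, an exact permutation test.

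In EpiLCs the same signal was 0.609 ± 0.122 in WT and 0.619 ± 0.0278, 0.460 ± 0.133 and 0.281 ± 0.0131 in LBRKO, TKO and QKO (exact permutation p = 0.00552; SD, n = 3). Only the QKO libraries lay apart from WT, and the TKO libraries overlapped the WT libraries. With 3 libraries against 3, the smallest p a pairwise exact test can give is 0.1, which was reached by TKO in naive cells and by QKO at both stages. IGG over the same copies, in WT, was 0.113 ± 0.0251 in naive cells and 0.232 ± 0.132 in EpiLCs. The naive QKO libraries, at 0.166 to 0.192, lay above the naive IGG libraries, at 0.0846 to 0.132, while in EpiLCs the QKO libraries, at 0.268 to 0.294, lay within the range of IGG, 0.147 to 0.383. The antibodies were scaled in separate tables and IGG was not profiled in the mutants, so the part of background in the mutant values was not tested.

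This loss of signal was shared by nearly all TE subfamilies. Among the 279 DNA subfamilies with at least 20 copies, limma called 279 lower in TKO and 279 in QKO naive cells at a Benjamini-Hochberg adjusted p under 0.05, where 99.5% and 99.7% of all 1170 TE subfamilies tested were called lower. In EpiLCs it called 279 lower in QKO, with 99.9% of all subfamilies called lower. It called 21 lower in TKO EpiLCs, with 15.4% of all called lower, a count that became 275 without TKO replicate 1, 264 without WT replicate 2 and 0 without any one of the other 4 libraries. In LBRKO it called 8 lower in naive cells, with 8.8% of all called lower, a count that became 18 without WT replicate 1 and 0 without WT replicate 2, LBRKO replicate 1 or LBRKO replicate 2. In LBRKO EpiLCs it called 0, with 0% of all called and 0 at an unadjusted p under 0.05.

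To see how DNA transposons moved against other repeats in the same library, each library was divided by the signal of its median TE subfamily. On this relative scale the mean DNA copy of naive WT libraries had a log2 level of −0.13, −0.15 and −0.11. It was −0.08 to −0.09 in TKO, −0.01 to 0.01 in LBRKO and 0.01 to 0.03 in QKO, with no overlap between any mutant and WT. LBRKO stood 0.14 ± 0.02 above WT, TKO 0.05 ± 0.01 and QKO 0.15 ± 0.02 (pooled SD, n = 3; exact permutation p = 0.00013). When each library was divided by its mean TE copy instead, the LBRKO difference stayed positive, at 0.08, while those of TKO and QKO turned to −0.06 and −0.11.

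In EpiLCs LBRKO stood 0.06 above WT, TKO 0.05 and QKO 0.07 on this log2 scale (exact permutation p = 6.49e-05, the smallest that these libraries can give). The mean over all TE copies as divisor gave 0.07, 0.009 and 0.002. The direction of the class in naive TKO and QKO cells therefore depended on which summary of the other repeats it was set against, while in EpiLCs both divisors gave positive values, those of TKO and QKO overlapping WT with the mean copy. In WT the relative level of the class was −0.15 for LMNB1 and −0.05 for IGG in naive cells.

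**Figure D1:**
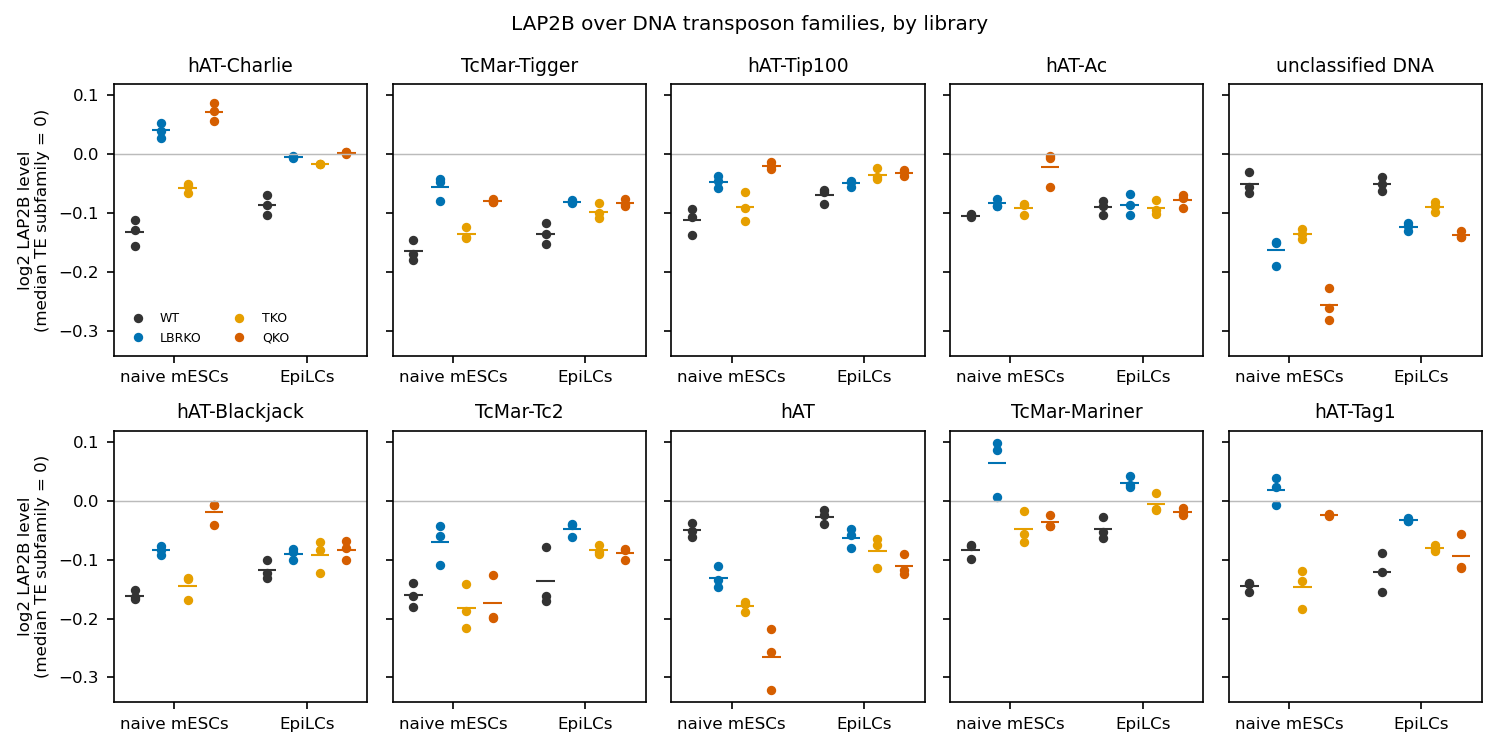
Relative LAP2B level (log2 of the mean over copies, divided by the library's median TE subfamily) of the DNA transposon families with at least 500 copies, by genotype and stage. Points are libraries and bars are group means; in naive cells hAT-Charlie rose and unclassified DNA and unassigned hAT fell in every mutant library relative to WT.

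The families did not move alike, and the clearest split was between hAT-Charlie and the unclassified or unassigned copies. hAT-Charlie had relative log2 levels of −0.13, −0.16 and −0.11 in the naive WT libraries and 0.09, 0.06 and 0.07 in the QKO libraries. It stood above WT by 0.17 ± 0.02 for LBRKO, 0.07 ± 0.02 for TKO and 0.20 ± 0.02 for QKO (pooled SD, n = 3; exact permutation test, adjusted p = 0.000325 over 20 family tests). All mutant libraries lay above all WT libraries. With the mean TE copy as divisor, the TKO and QKO differences of hAT-Charlie turned to −0.04 and −0.06.

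Unclassified DNA went the other way. Its relative log2 levels were −0.07, −0.03 and −0.06 in naive WT and −0.28, −0.23 and −0.26 in QKO, with no overlap. LBRKO fell by 0.11 ± 0.02, TKO fell by 0.09 ± 0.01 and QKO fell by 0.21 ± 0.02 (exact permutation test, n = 3, adjusted p = 0.000325). Unassigned hAT, which includes the conserved MER121, fell by 0.08 ± 0.02, by 0.13 ± 0.01 and by 0.22 ± 0.04 in the same order, with the same adjusted p. Both also fell under the other divisor in naive cells, by 0.47 for unclassified DNA and by 0.48 for unassigned hAT in QKO.

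In TKO and QKO the other families moved less on this scale, while in LBRKO hAT-Tag1 (0.16) and TcMar-Mariner (0.15) moved about as far as hAT-Charlie. In naive cells TcMar-Tigger stood above WT by 0.11 for LBRKO, 0.03 for TKO and 0.09 for QKO (log2; exact permutation test, n = 3, adjusted p = 0.000433), and its TKO and QKO differences became −0.09 and −0.18 with the mean TE copy as divisor. Adding back FordPrefect and Tigger17d ended the TcMar-Tigger call in naive cells and in EpiLCs (permutation test, adjusted p = 0.104 and 0.132). hAT-Tip100, hAT-Ac, hAT-Blackjack and hAT-Tag1 stood 0.08 to 0.14 above WT in QKO, and all 4 turned negative with the mean TE copy as divisor, to between −0.12 and −0.18. TcMar-Mariner, the family of the MARNA element, had smaller differences in TKO and QKO, 0.04 and 0.05, and TcMar-Tc2, of the Kanga elements, moved above WT in LBRKO alone, by 0.09.

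In EpiLCs hAT-Charlie was again above WT and the unclassified and unassigned copies below it. hAT-Charlie stood 0.08, 0.07 and 0.09 above WT in LBRKO, TKO and QKO (exact permutation test, n = 3, adjusted p = 0.000325), and 0.09, 0.02 and 0.02 with the mean TE copy as divisor, where TKO and QKO overlapped WT. Unclassified DNA fell by 0.07, by 0.04 and by 0.09 (adjusted p = 0.000433) and unassigned hAT by 0.04, by 0.06 and by 0.08 (adjusted p = 0.00494), each by the exact permutation test. The unassigned hAT call was lost with means over subfamily means (permutation test, adjusted p = 0.530), where its TKO difference was 0.0025. hAT-Ac (adjusted p = 0.630) and hAT-Blackjack (adjusted p = 0.195) missed the threshold in EpiLCs by the same permutation test, and the other 18 of the 20 family tests passed it. The difference between stages was not tested at the family level.

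A comparison inside the class, chosen after the data were seen, divided each family by the mean DNA copy of its library and so did not depend on the other repeats. In naive cells hAT-Charlie then stood 0.04, 0.02 and 0.05 above WT in LBRKO, TKO and QKO on the log2 scale. Unclassified DNA fell by 0.25 ± 0.03, by 0.14 ± 0.03 and by 0.36 ± 0.04, and unassigned hAT by 0.22 ± 0.02, by 0.18 ± 0.02 and by 0.37 ± 0.05 (pooled SD, n = 3; exact permutation test, adjusted p = 0.000216 for each of the 3 families). In EpiLCs the falls were by 0.14, by 0.09 and by 0.16 for unclassified DNA and by 0.10, by 0.11 and by 0.15 for unassigned hAT. Besides these 3, every family of at least 500 copies had a negative difference in naive QKO. The differences ran from −0.01 for hAT-Blackjack to −0.17 for TcMar-Tc2, with overlap of WT for hAT-Blackjack and hAT-Tag1. hAT-Charlie supplies most of the mean it was divided by, which limits how far it can move on this scale.

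The log2 ratio of the largest families, TcMar-Tigger over hAT-Charlie, fell from −0.04, −0.02 and −0.04 in naive WT to −0.16, −0.14 and −0.16 in QKO. LBRKO fell by 0.06 ± 0.01, TKO fell by 0.05 ± 0.01 and QKO fell by 0.12 ± 0.01 (exact permutation test, n = 3, p = 0.00013), and in EpiLCs by 0.03, by 0.03 and by 0.04 (p = 0.0116 by the same permutation test). All mutant libraries lay below the WT libraries of their stage in naive cells and in EpiLCs. Adding back Tigger17d and FordPrefect ended the call at both stages (permutation p = 0.259 and 0.121), and the TKO difference then became 0.01 in naive cells and 0.11 in EpiLCs.

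In WT cells the DNA copies with more LMNB1 also had more LAP2B. The DNA copies were ranked by WT LMNB1 of the stage and split into quartiles of about 41041 copies, and the LAP2B lamina contrast was taken as the log2 of the mean signal in the top quartile over that in the bottom quartile. In naive cells it was 1.71, 1.99 and 1.56 in WT. The LBRKO libraries had 1.24, 0.88 and 1.06, the TKO libraries 1.11, 0.81 and 1.14, and the QKO libraries 0.04, 0.15 and 0.04. The mutants did not overlap WT, LBRKO and TKO overlapped each other, and QKO lay far below both.

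For LBRKO the contrast fell by 0.69 ± 0.20, for TKO it fell by 0.73 ± 0.20 and for QKO it fell by 1.67 ± 0.16 (pooled SD, n = 3; exact permutation p = 0.000519). In IGG of naive WT cells it was 0.65 ± 0.16, and in LMNB1 itself, which set the ranking, 2.36 ± 0.21. The naive QKO contrast was thus below that of the IGG libraries of the same stage. A contrast within a library does not depend on the scale of that library.

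In EpiLCs the contrast was 1.34, 1.12 and 1.15 for WT and 1.09, 1.08 and 1.02 for LBRKO. It was 0.77, 0.77 and 0.76 for TKO and 0.68, 0.67 and 0.68 for QKO (exact permutation p = 6.49e-05). Again no mutant overlapped WT, although the LBRKO values lay close under the lowest WT value. The IGG contrast of 0.70 ± 0.05 lay between the EpiLC values of TKO and QKO. Both stages kept their calls when copies were ranked by LMNB1 over IGG, by the LMNB1 of the other stage, over quartiles of all TE copies or with medians, but the sizes moved. Ranked by LMNB1 over IGG, the falls from WT were larger, by 1.05, by 0.94 and by 2.17 on the log2 scale for naive LBRKO, TKO and QKO and by 0.36, by 0.71 and by 0.90 in EpiLCs. Ranked by the LMNB1 of the other stage, naive QKO fell by 1.21 and EpiLC QKO by 0.70. LBRKO in EpiLCs overlapped WT with that ranking and with medians.

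**Figure D2:**
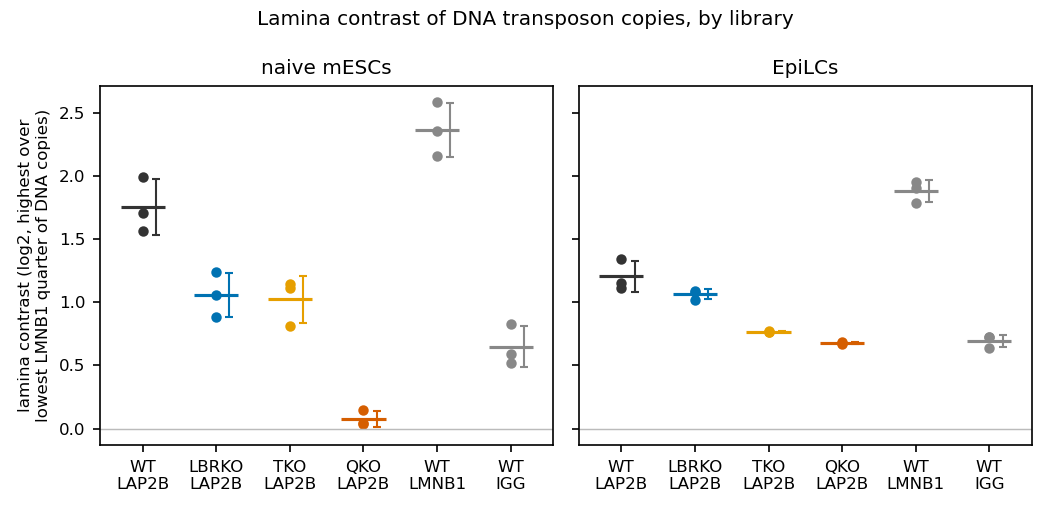
LAP2B lamina contrast of the DNA transposon copies, the log2 of mean signal in the top over the bottom quartile of copies by WT LMNB1 of the stage. Points are single libraries and bars are group means, with the WT LMNB1 and IGG libraries alongside; the naive QKO libraries lie between 0.04 and 0.15 and the naive WT libraries between 1.56 and 1.99.

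On the relative scale most of the change in naive cells came in the copies with the least LMNB1, whereas on the spike-in scale that of TKO and QKO came mostly in those with the most. On the relative log2 scale the lowest quartile of copies in WT stood at −1.10 ± 0.18, in LBRKO at −0.52 ± 0.10, in TKO at −0.56 ± 0.11 and in QKO at 0.07 ± 0.05 (SD, n = 3). The top quartile stood at 0.65 ± 0.04, 0.54 ± 0.08, 0.46 ± 0.08 and 0.15 ± 0.02 in the same order. In QKO the copies with the least and the most LMNB1 were thus at nearly the same relative level.

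On the spike-in scale the mean signal of the top quartile was 0.918, 1.504 and 0.984 in the naive WT libraries, 0.367, 0.546 and 0.424 for TKO and 0.208, 0.185 and 0.202 for QKO. That of the lowest quartile was 0.282, 0.378 and 0.334 in WT, 0.170, 0.311 and 0.192 for TKO and 0.203, 0.167 and 0.196 for QKO. The top quartile of TKO and QKO lay below WT without overlap, as did the lowest quartile of QKO, while the lowest quartile of TKO overlapped WT.

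The families differed in how their quartiles moved. In hAT-Charlie the lowest quartile went from −1.09 in naive WT to 0.14 in QKO while the top quartile went from 0.66 to 0.21. In unclassified DNA the lowest quartile went from −1.04 to −0.16 and the top quartile from 0.65 to −0.09. In unassigned hAT they went from −1.08 to −0.16 and from 0.67 to −0.17. Both smaller groups thus rose less in the lowest quartile and fell further in the top quartile than hAT-Charlie did. The third quartile of unclassified DNA, at −0.15 in WT, was at −0.56 in QKO.

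**Figure D3:**
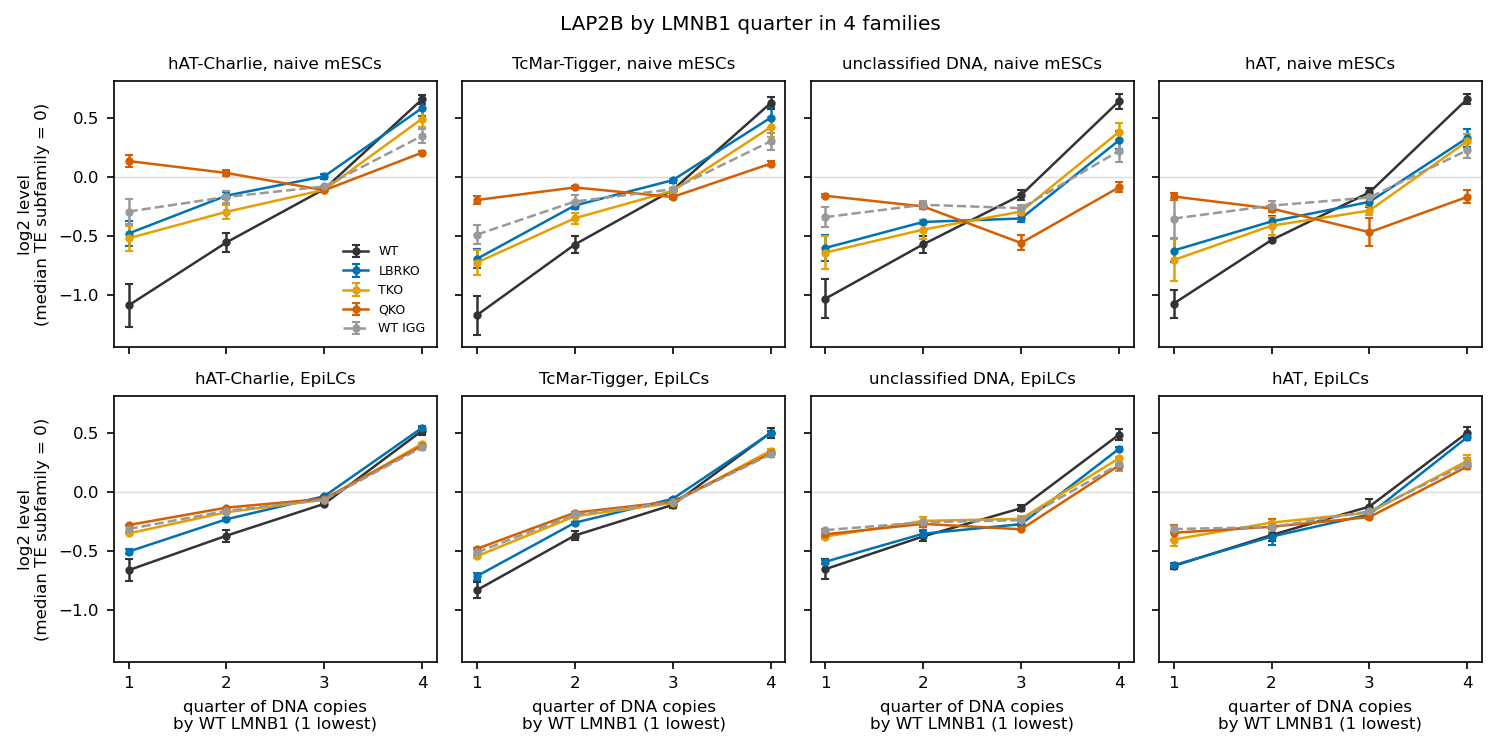
Relative LAP2B level (log2) of DNA transposon copies by quartile of WT LMNB1, from the lowest to the highest, in each genotype. The panels are hAT-Charlie, TcMar-Tigger, unclassified DNA and unassigned hAT at each stage, with WT IGG alongside. Points are group means over 3 libraries. Over the whole class, which is not drawn, naive WT climbed from −1.10 to 0.65 and naive QKO from 0.07 to 0.15.

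Across the 279 DNA subfamilies, LBRKO brought more rises than falls on the relative scale in naive cells. limma called 139 higher and 54 lower, 74.3% of all 1170 TE subfamilies being called, with 31.6% of them higher and 42.6% lower. The median log2 change of the DNA subfamilies was 0.08, against −0.03 over all subfamilies. With the mean TE copy as divisor, 103 were higher and 69 lower, and the median over all subfamilies moved to −0.08. Here and below, shares of all TE subfamilies called are for means over copies with the median subfamily as divisor. Counts under other choices stand without that background. Using the median over copies in place of the mean left 101 called.

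TKO changed fewer of them in naive cells, with 64 higher and 56 lower where 55% of all TE subfamilies were called, 33.6% higher and 21.5% lower. The split became 8 higher and 147 lower with the mean TE copy as divisor, with the median over all subfamilies moving from 0.02 to −0.09. QKO changed most, with 116 higher and 95 lower where 80.6% of all were called, 37.9% higher and 42.7% lower. That split became 29 and 200, with a shift of the overall median from −0.02 to −0.26. The share of DNA subfamilies called in QKO, 75.6%, was thus near the background.

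In EpiLCs, LBRKO had 87 higher and 29 lower DNA subfamilies, where 49.2% of all TE subfamilies were called, 19.8% higher and 29.4% lower. TKO had 61 and 18, with 33.9% of all called, 15.3% higher and 18.6% lower. QKO had 82 and 38, with 50.3% of all called, 23.2% higher and 27.1% lower. With the mean TE copy as divisor these became 93 and 23, 21 and 39, and 27 and 78. Without WT replicate 1 the TKO total of 79 fell to 50. With the median over copies limma called 13, 0 and 14 in all, and 31 had an unadjusted p under 0.05 in TKO. Of the DNA subfamilies called higher in QKO EpiLCs, 78 of 82 (95.1%) were also among the 116 called higher in naive QKO cells, close to the 94.8% over all TE subfamilies.

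The rises and falls were spread unevenly over the families. In naive QKO cells, where 37.9% of all TE subfamilies were higher and 42.7% lower, 54 of 79 hAT-Charlie subfamilies were called higher and 13 lower, and 26 of 50 hAT-Tip100 subfamilies higher and 9 lower. Of the 35 unclassified DNA subfamilies 3 were higher (Eulor9A, Eutr11 and UCON78, named after their values were seen) and 27 lower. Of the 7 unassigned hAT subfamilies 2 were higher and 3 lower, so the fall of their mean copy was not shared by all of them. TcMar-Tigger was split, with 15 of 55 higher and 18 lower. Among the subfamilies of the 11 smallest families together, such as the Crypton, Merlin and PIF-Harbinger copies, 3 of 25 were higher and 17 lower. The mean TE copy as divisor turned the balance of the larger families, to 14 higher and 40 lower for hAT-Charlie, 9 and 28 for hAT-Tip100 and 2 and 50 for TcMar-Tigger, and gave 1 and 33 for unclassified DNA. The median over all TE subfamilies also moved down under that divisor. These counts have no share over all TE subfamilies beside them, so they are not read against the background.

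hAT-Charlie and unclassified DNA split in the same way in LBRKO, where 31.6% of all TE subfamilies were higher and 42.6% lower. TcMar-Tigger did not, with 27 of 55 higher and 4 lower in naive LBRKO, or 18 and 8 under the mean-copy divisor. There 60 of 79 hAT-Charlie subfamilies were higher and 6 lower in naive cells, while 5 of 35 unclassified DNA subfamilies were higher and 19 lower. In naive TKO cells, with 33.6% of all higher and 21.5% lower, the counts were 33 and 4 of 79 for hAT-Charlie and 3 and 16 of 35 for unclassified DNA. Under the mean-copy divisor LBRKO had 51 and 8 for hAT-Charlie and 3 and 22 for unclassified DNA, whereas the TKO counts turned to 2 and 32 for hAT-Charlie and came to 0 and 25 for unclassified DNA. The mean-copy counts here also lack a share over all TE subfamilies. By name, the 45 Charlie elements had 25 higher and 11 lower in naive QKO, where 37.9% of all TE subfamilies were higher and 42.7% lower. Their median log2 change was 0.14. The 32 Tigger elements had 8 higher and 12 lower, with a median of −0.03, where the median over all TE subfamilies was −0.02. These counts by name are for the median subfamily as divisor only.

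**Figure D4:**
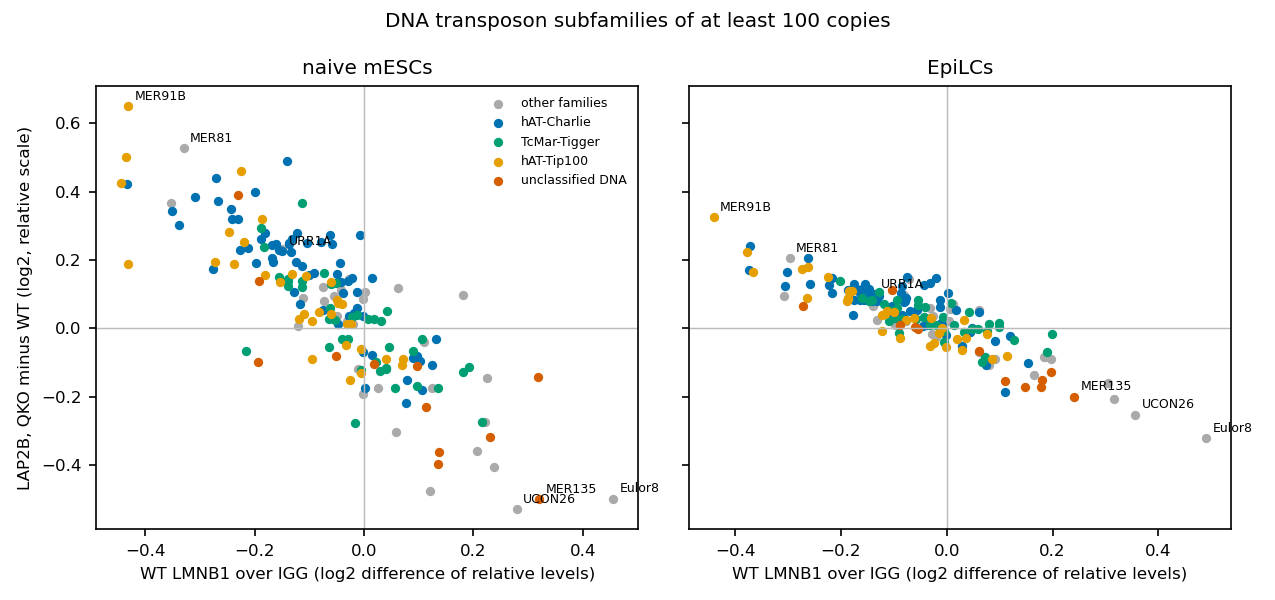
Relative LAP2B change (log2, QKO over WT) of each DNA subfamily with at least 100 copies against its WT LMNB1 over IGG (log2), by stage. Points are the 181 subfamilies, coloured by family. Subfamilies with more LMNB1 over IGG tended to have lower changes at both stages.

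The change of a subfamily followed its LMNB1 signal over IGG in WT cells. Across the 181 subfamilies with at least 100 copies, Pearson's r in naive cells was −0.71 for LBRKO, −0.77 for TKO and −0.84 for QKO, with Spearman's rho of −0.67, −0.74 and −0.85. In EpiLCs r was −0.57, −0.86 and −0.88, and rho −0.46, −0.81 and −0.83. These describe subfamilies and not replicates, since subfamilies share libraries and, in part, values of neighbouring copies, and the 3 genotypes of a stage share the WT libraries. The change also subtracts WT LAP2B, and WT LAP2B over IGG itself rose with LMNB1 over IGG (Pearson's r of 0.92 at each stage). A negative r can come from that relation by itself, and its part was not tested.

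Among subfamilies of at least 100 copies, the 3 largest rises in each comparison were all in hAT elements. Of the smaller ones, EutTc1-N1 (22 copies, named after its values were seen) rose by 0.45 in naive LBRKO and by 0.43 in QKO EpiLCs. MER91B, a hAT-Tip100 element with 203 copies, had relative LAP2B levels of 0.867, 0.742 and 0.903 in naive WT and 1.40, 1.31 and 1.39 in QKO. The groups did not overlap, and the log2 change was 0.65 ± 0.06 (limma SE, adjusted p = 2.2e-09). Its IGG level in naive WT was 1.01, so the QKO level lay above that of IGG. In LBRKO the change was 0.32 and in TKO 0.25. The QKO change was 0.41 under the mean-copy divisor and 0.39 with medians over copies.

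MER91A, its relative with 299 copies, had 0.872, 0.783 and 0.864 in naive WT and 1.11, 1.24 and 1.18 in LBRKO. That rise, 0.44 ± 0.05 (limma, adjusted p = 1.23e-07), was the largest called in LBRKO among subfamilies of at least 100 copies. MER91C, the third element of the series, had the lowest LAP2B over IGG in naive WT, −0.33 on the log2 scale, and rose by 0.42 in QKO, or 0.19 under the mean-copy divisor. That ratio and the change share the WT LAP2B libraries, so an element that is low there by chance also appears to rise, and the relation between them was not tested. MER81, of hAT-Blackjack, went from 0.904, 0.854 and 0.906 in naive WT to 1.40, 1.24 and 1.34 in QKO, a change of 0.53 ± 0.03 (limma, adjusted p = 3.08e-11) that came to 0.29 under the mean-copy divisor.

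Among hAT-Charlie elements of at least 100 copies, MER112 rose most in naive LBRKO cells, by 0.34 ± 0.02 (limma, adjusted p = 4.53e-10), from 0.810, 0.798 and 0.828 to 1.06, 1.01 and 1.10. Its change in TKO was 0.11, which became 0.004 with the mean TE copy as divisor. MER102b rose by 0.27 ± 0.03 in naive TKO cells (limma, adjusted p = 7.66e-07), but by 0.14 once copies in the top 1% of WT IGG were left out, by 0.16 under the mean-copy divisor and by 0.07 with medians over copies, where it missed the threshold (limma, adjusted p = 0.471). MER117, also with little LAP2B over IGG in WT (−0.31), rose by 0.42 in naive QKO, or 0.19 under the mean-copy divisor.

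In EpiLCs MER113A, of hAT-Charlie, rose in all 3 mutants. It went from 0.803, 0.819 and 0.830 in WT to between 0.937 and 1.00 in the 9 mutant libraries, with changes of 0.24 (LBRKO), 0.22 (TKO) and 0.24 (QKO). Among subfamilies of at least 100 copies Charlie1b and Charlie9 were the other largest rises in LBRKO EpiLCs, by 0.18 and 0.17, and in TKO EpiLCs they changed by 0.08 and 0.05, the second of which did not pass the test (limma, adjusted p = 0.27). Under the mean-copy divisor Charlie1b also missed the threshold in TKO EpiLCs (limma, adjusted p = 0.267). Under the same limit on copies MER91B had the largest rise in QKO EpiLCs, with a change of 0.33 ± 0.06 (limma, adjusted p = 8.33e-05).

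Among the falls, Eulor8, a repeat with 106 copies shared across bony vertebrates, had the highest LAP2B over IGG in naive WT, 0.33 on the log2 scale, a ratio that again shares the WT libraries with the change. Its relative LAP2B levels were 1.03, 1.15 and 1.01 in naive WT and 0.756, 0.703 and 0.703 with LBRKO. They were 0.897, 0.874 and 0.886 with TKO and 0.731, 0.736 and 0.706 with QKO. All mutant libraries lay below WT, and those of LBRKO and QKO were also below its WT IGG level of 0.848. In LBRKO it fell by 0.51 ± 0.06 (limma, adjusted p = 1.52e-07), in TKO it fell by 0.24 and in QKO it fell by 0.50.

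MER135, an unclassified DNA repeat with 275 copies, went from 1.00, 1.06 and 1.01 in naive WT to 0.684, 0.712 and 0.687 in QKO. It fell by 0.50 ± 0.03 there (limma, adjusted p = 1.44e-12), by 0.29 in LBRKO and by 0.19 in TKO. UCON26, placed in hAT-Ac, fell by 0.53 ± 0.04 in naive QKO (limma, adjusted p = 1.84e-10), from 1.09, 1.12 and 1.03 to 0.702, 0.752 and 0.704. Neither overlapped WT, and the QKO levels of both lay under their IGG levels of 0.858 and 0.909.

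MER125, one of the few Merlin elements, fell by 0.48 in naive QKO and by 0.29 in LBRKO. MER99, of unassigned hAT, was among the largest falls in naive TKO, by 0.20 ± 0.04 (limma, adjusted p = 0.000364), while its change in LBRKO, −0.03, did not pass the test (limma, adjusted p = 0.507). MER121, the most abundant of that group with 561 copies, had naive changes of −0.12 (LBRKO), −0.14 (TKO) and −0.30 (QKO). MER131, the most abundant unclassified DNA repeat with 474 copies, fell by 0.07 in LBRKO and by 0.11 in QKO, and its change of −0.03 in TKO did not pass the test (limma, adjusted p = 0.263). Under the mean-copy divisor MER131 was called in TKO as well, at −0.14, with −0.12 in LBRKO and −0.34 in QKO. MER121 then had −0.17, −0.25 and −0.54 in LBRKO, TKO and QKO.

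In EpiLCs Eulor8 had changes of −0.25 (LBRKO), −0.23 (TKO) and −0.32 (QKO), and was the largest fall in each among subfamilies of at least 100 copies. UCON8 fell by 0.18 ± 0.03 in TKO (limma, adjusted p = 0.00025), MER130 by 0.14 in LBRKO and by 0.17 in QKO, and Charlie6, a hAT-Charlie element, by 0.14 in LBRKO. The 36 largest changes named by rule kept their direction and call with the mean TE copy as divisor, with any library left out and without the copies highest in IGG. Their size moved with the divisor. In naive TKO, MER91A went from 0.28 to 0.18, MER91B from 0.25 to 0.15 and MER99 from −0.20 to −0.30, and in naive QKO MER91A went from 0.50 to 0.26. With the median over copies all kept their direction and 15 lost their call.

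**Figure D5:**
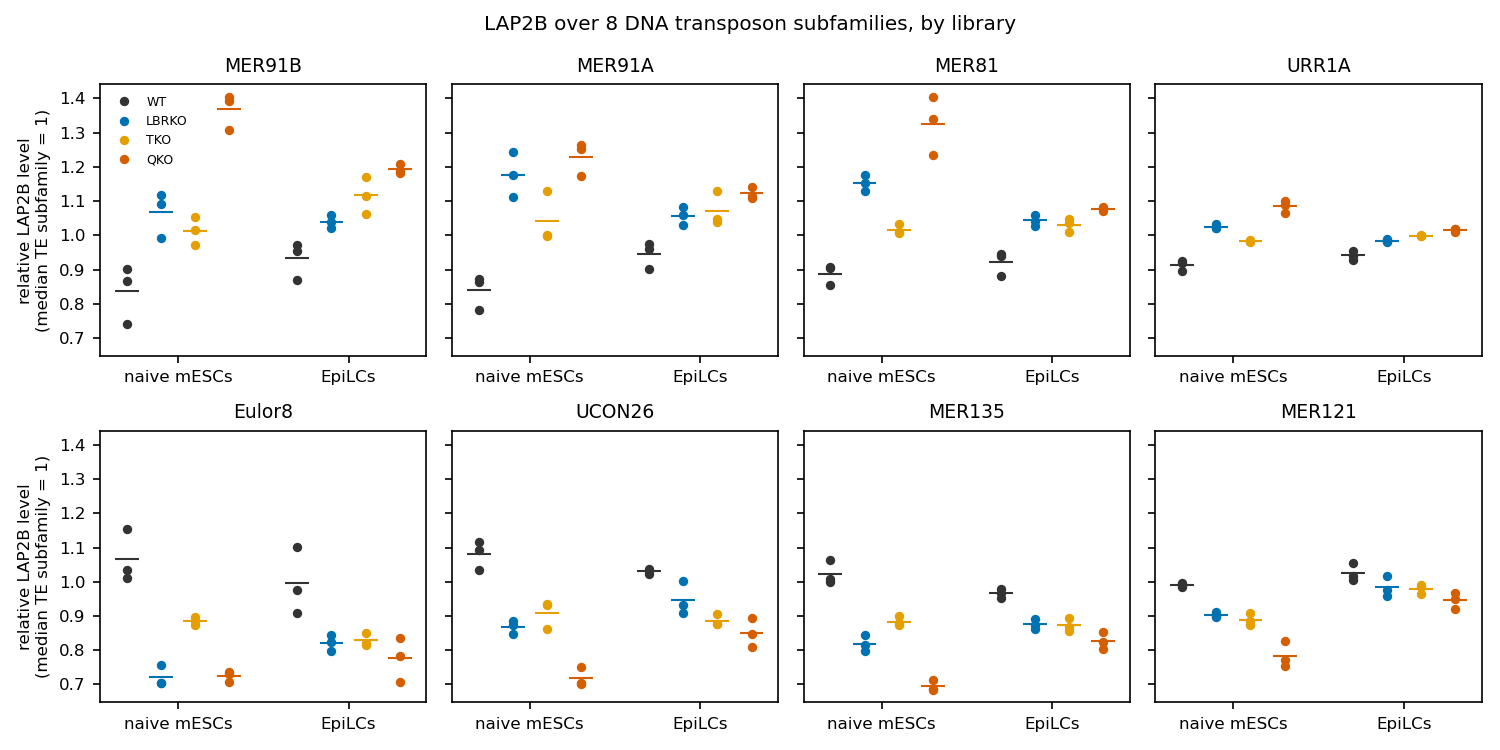
Relative LAP2B level of named DNA subfamilies in the libraries of each genotype and stage. Points are libraries and bars are group means; MER91B lies between 1.31 and 1.40 in naive QKO against 0.742 to 0.903 in WT, and Eulor8 between 0.706 and 0.736 against 1.01 to 1.15.

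URR1A and URR1B, hAT-Charlie elements that spread in the rodent lineage, are among the youngest of the abundant mouse DNA transposons, and URR1A is the largest subfamily, with 20108 copies. URR1A had relative levels of 0.918, 0.896 and 0.925 in naive WT and 1.10, 1.07 and 1.09 in QKO, without overlap. Its changes were 0.15 (LBRKO), 0.10 (TKO) and 0.23 ± 0.01 (QKO; limma, adjusted p = 4.13e-11), although with the mean TE copy as divisor the TKO and QKO changes were −0.009 and −0.01. URR1B, with 14183 copies, rose by 0.19, by 0.11 and by 0.28 in the same order. Under the other divisor its changes were 0.13, 0.0013 and 0.04, and that of TKO lost its call (limma, adjusted p = 0.946). Both were called higher in all 6 comparisons with the median subfamily as divisor, in which 15.3% to 37.9% of all TE subfamilies were called higher. With medians over copies both kept their calls in naive LBRKO and naive QKO only, and no EpiLC call of either was kept.

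The MER5 elements are older non-autonomous relatives of the Charlie transposons. In LBRKO all 5 were called higher at both stages, where 31.6% (naive) and 19.8% (EpiLCs) of all TE subfamilies were, with a median log2 change of 0.12 in naive cells, where the median over all TE subfamilies was −0.03. In naive LBRKO MER5A1 and MER5C missed the threshold with the mean TE copy as divisor (limma, adjusted p = 0.407 and 0.175). With medians over copies only MER5B and MER5C1 kept their call in naive LBRKO, and none of the 5 kept it in LBRKO EpiLCs. In naive QKO, with 37.9% of all higher, 3 of 5 were higher, MER5A by 0.05, MER5B by 0.19 and MER5C1 by 0.24, and MER5C1 came to 0.08 without the copies highest in IGG and lost its call (limma, adjusted p = 0.143). None of these 3 rises held with the mean TE copy as divisor, where MER5A and MER5B turned to −0.18 and −0.05 in naive QKO and MER5C1 came to 0.0045 (limma, adjusted p = 0.929). In naive TKO only MER5B was called, at 0.09, which turned to −0.01.

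The most abundant subfamilies of the families not yet described had changes of at most 0.23 in naive cells, and their direction in TKO and QKO mostly depended on the divisor. MER2, the leading TcMar-Tigger element with 10467 copies, had naive changes of 0.13 (LBRKO), 0.05 (TKO) and 0.14 (QKO), and the mean TE copy as divisor gave 0.07, −0.05 and −0.09, all called. OldhAT1 of hAT-Ac was called in naive QKO at 0.11, but at −0.12 with the other divisor, which also called it in TKO at −0.08. MARNA of TcMar-Mariner was called in naive LBRKO at 0.12, and with the other divisor at 0.06 there, −0.09 in TKO and −0.21 in QKO.

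Kanga2_a of TcMar-Tc2 was called in naive LBRKO at 0.11 and lost that call with the mean TE copy as divisor (limma, adjusted p = 0.165), which instead called TKO at −0.11 and QKO at −0.22. hAT-1_Mam of hAT-Tag1 rose by 0.18 in LBRKO, a rise of 0.13 with the other divisor, while its 0.12 in QKO turned to −0.11. MER53 of hAT-Blackjack rose by 0.11, 0.05 and 0.23 in LBRKO, TKO and QKO, and the other divisor gave 0.06, −0.06 and −0.003. MER63D of hAT-Tip100 rose by 0.07 in LBRKO and 0.14 in QKO, against 0.01 and −0.10.

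From naive cells to EpiLCs, WT LAP2B moved in fewer DNA subfamilies. limma called 42 higher and 9 lower in EpiLCs on the relative scale, where 28.9% of all TE subfamilies were called, 14.8% higher and 14.1% lower, and the split became 16 and 25 with the mean TE copy as divisor. The count of 51 fell to 20 without EpiLC replicate 2 or naive replicate 2 of WT, to 32 without naive replicate 1 and to 0 with the median over copies, where 43 had an unadjusted p under 0.05. MER91C (0.22), MER91A (0.16), MER117 (0.14) and URR1B (0.07) rose, and MER135 fell by 0.08 (limma, adjusted p = 0.0311). MER91C, MER117 and MER135 were named for their LAP2B over IGG in naive WT, and MER91A for rises over naive WT. A choice on the same naive WT libraries by itself favours such moves, and its part in them was not tested.

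For LMNB1 and IGG few such changes between stages were called at this precision. Each was fitted on its WT libraries alone, while LAP2B was fitted with the libraries of all genotypes, so the counts differ in power. For LMNB1 limma called 1 DNA subfamily, UCON37 of hAT-Ac (43 copies, named after its values were seen), where 0.855% of all TE subfamilies were called and 43 DNA subfamilies had an unadjusted p under 0.05. That call was lost without naive replicate 1 or any one of the EpiLC libraries, and without naive replicate 2 there were 3 calls. UCON37 stood at 0.695, 0.710 and 0.750 in naive cells and 0.835, 0.858 and 0.826 in EpiLCs. For IGG limma called 0, with 0.256% of all called and 30 at an unadjusted p under 0.05, and 1 without EpiLC replicate 3.

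The genotype effects themselves were compared between stages by limma's interaction test on the relative scale. For LBRKO the change in EpiLCs exceeded that in naive cells in 15 DNA subfamilies and lay below it in 49, where 28% of all TE subfamilies were called, 15% above and 13.1% below. For TKO the counts were 10 and 1, where 18.3% of all were called, 2.14% above and 16.2% below. The TKO total of 11 fell to 4 without naive TKO replicate 3, to 5 without WT replicate 1 or TKO replicate 3 of the EpiLCs, and to 6 without their WT replicate 3 or TKO replicate 2. For QKO they were 50 and 69, where 55.6% of all were called, 26.4% above and 29.2% below. For QKO 37 of 79 hAT-Charlie subfamilies were below, while 14 of 35 unclassified DNA subfamilies were above. The 15 of 50 hAT-Tip100 subfamilies below were near the share of all TE subfamilies. These family counts are for the median subfamily as divisor.

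With the mean TE copy as divisor these splits became 33 and 13, 42 and 0, and 174 and 9, with 40 hAT-Charlie subfamilies above and 3 below for QKO. The median over all subfamilies then moved to 0.18 for QKO. These counts have no share over all TE subfamilies beside them, so they are not read against the background. With medians over copies 0, 1 and 8 subfamilies were called for LBRKO, TKO and QKO. Named elements illustrate both sides. The change of MER81 in QKO was 0.53 in naive cells and 0.20 in EpiLCs, and that of MER135 was −0.50 and −0.20. URR1A and URR1B likewise changed less in EpiLCs for LBRKO and QKO, by 0.09 to 0.16 on the log2 scale (limma, adjusted p under the threshold in all 4 tests). Under that divisor neither LBRKO difference passed the test (limma, adjusted p = 0.173 for URR1A and 0.0645 for URR1B), and the order turned for QKO, where URR1A had −0.01 in naive cells and 0.04 in EpiLCs and URR1B 0.04 and 0.06. The URR1B difference between stages did not pass the test there (limma, adjusted p = 0.522).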

How the data were processed

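CUT&RUN libraries of 12 groups, each with 3 libraries, were analysed, and 2 H3K9me3 samples were left aside. The authors, by the methods and the submitters' processing notes, aligned reads to mm39 with Bowtie2 (2.3.5.1), filtered them with SAMtools (1.10), removed duplicates, computed coverage with deepTools as RPKM in bins and multiplied it by a yeast spike-in factor, keeping blacklisted regions for TEs. How bins were combined into the deposited signal of a copy, and whether it was divided by length, is not given in the sources used here. The methods state a bin width for TEs, but whether the deposited values rest on it was not settled. A level that is not divided by IGG may therefore depend on the size of the copies. The files hold no coordinates or sequences of single copies. Nearly all low values were whole multiples of 1 read within a tolerance of 0.05, and these steps were used for depth only.

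Members were taken by class with FordPrefect and Tigger17d left out, and a subfamily name found in several families was split by family. Values were averaged over copies, and the relative scale divided each library by its median TE subfamily. limma (3.58.1 in R 4.3.3; trend, log2 with a pseudocount of 0.1 of the median subfamily) was fitted per antibody over all 1170 of 1241 TE subfamilies with at least 20 copies, with Benjamini-Hochberg adjustment over all of them and calls at 0.05. Values over all copies were compared by exact permutation of libraries in Python (3.11.15, NumPy 2.4.6, pandas 2.3.3). Of the member subfamilies, 279 had 20 copies or more and 22 did not.

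The named subfamilies were the most abundant one of every family with at least 500 copies, the 3 largest rises and 3 largest falls called in each comparison with WT among those of at least 100 copies, the 3 highest and 3 lowest in LAP2B over IGG in naive WT, and the URR1 and MER5 elements. The members and lists were chosen with earlier results of these data known. Samples were grouped by the labels, and no value column was left unmapped (0 columns). Replicate numbers are shared between groups. The deviations of same-numbered libraries correlated above 0.1 in all 3 numbers for 1 of 30 pairs of groups, naive WT and naive QKO LAP2B (0.16, 0.32 and 0.22). There the numbers may pair the libraries, which was not tested against chance. A pairing in the other pairs of groups was not tested either. The correlations were taken on the relative scale, so a scale shared by same-numbered libraries was not checked. The main fits and the permutation tests used no pairing, and a replicate block was run as an alternative. The fits were tested on simulated data.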

Additional observations from a re-analysis of the deposited data

Results flagged for a closer look

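The genotype effect on relative LAP2B differed between EpiLCs and naive mES cells, by limma's interaction test (adjusted p under 0.05), in 64 DNA subfamilies for LBRKO, 11 for TKO and 119 for QKO, where 28%, 18.3% and 55.6% of all TE subfamilies were called. With medians over copies the counts were 0, 1 and 8. The mean TE copy as divisor gave 33 above and 13 below for LBRKO, 42 and 0 for TKO and 174 and 9 for QKO, against 15 and 49, 10 and 1, and 50 and 69. No share over all TE subfamilies is given for that divisor.

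Among the subfamilies named for the largest changes in a genotype, the difference between stages passed that test for the following in LBRKO or QKO. Most of them were chosen for large changes in naive cells, which by itself favours a smaller change in EpiLCs. Some had smaller rises in EpiLCs than in naive cells. For LBRKO the EpiLC minus naive difference was −0.30 for MER91A, −0.19 for MER112, −0.18 for MER81 and −0.12 for Charlie1b on the log2 scale. For QKO it was −0.33 for MER91B, −0.32 for MER81 and −0.28 for MER91A. Under the mean-copy divisor these came to −0.15, −0.14 and −0.098, of which that of MER81 alone passed the test, and Charlie1b in LBRKO (−0.058) did not pass it either.

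Others, which fell in naive cells, fell less in EpiLCs. For LBRKO the difference was 0.26 for Eulor8, 0.17 for MER125, 0.16 for MER135 and 0.13 for MER130. For QKO it was 0.30 for MER135, 0.28 for UCON26 and 0.27 for MER125. These 7 falls kept their direction and call under the mean-copy divisor. With medians over copies, MER91A in QKO alone of all these named differences passed the test (limma, adjusted p = 0.0361).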

How the results depend on the processing

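The precision was set by 3 libraries a group and about 8 to 28 reads per copy, and copies with the same values do not add evidence. The lamina contrast and the class level on the spike-in scale kept their calls over the 4 genotypes under every alternative run, although the size of the contrast moved with the ranking of copies. The cause of the changes below was not tested. With medians over copies the calls on the relative scale were 101, 34 and 119 for LBRKO, TKO and QKO in naive cells and 13, 0 and 14 in EpiLCs, 0, 1 and 8 for the stage differences, 0 for the LAP2B and LMNB1 stage changes, and 23 for LBRKO naive on the spike-in scale. That last count (8) was 15 with a larger pseudocount, 14 without a filter on copies, 1 with at least 100 copies, 0 with only the groups compared and 0 to 18 with a library left out. With at least 100 copies all 181 tested were lower in naive TKO, naive QKO and EpiLC QKO, TKO EpiLCs had 8, LMNB1 0 and IGG 1. On the spike-in scale TKO EpiLCs (21) had 0 with the replicate block or only the groups compared, 55 without a trend and 0 to 275 with a library left out. With a library left out TKO EpiLCs on the relative scale had 50 to 82, the TKO stage difference (11) 4 to 16, the LAP2B stage change (51) 20 to 61, LMNB1 0 to 3 and IGG 0 to 1. With only the groups compared the TKO stage difference came to 3 and the LAP2B stage change to 12. LMNB1 had 0 calls without a filter, with the replicate block and with the mean TE copy as divisor, under which the TKO and QKO stage differences came to 42 and 183. The block gave 117 higher and 94 lower in naive QKO, where the numbers may pair the libraries. Apart from TKO EpiLCs on the spike-in scale and LMNB1 (both 0), it changed no other count by over 1.5 times. In the other comparisons the correlations of same-numbered libraries did not pass 0.1 in all 3 numbers, and whether the numbers pair those libraries was not tested.

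With the mean TE copy as divisor the following TKO and QKO differences changed sign: TcMar-Mariner −0.079 and −0.21 in naive cells and −0.0027 and −0.037 in EpiLCs, TcMar-Tigger −0.087 and −0.18, then −0.0084 and −0.014, hAT-Charlie −0.041 and −0.057 in naive cells, the class −0.064 and −0.11 in naive cells, and hAT-Tip100 −0.011 and −0.028 in EpiLCs. So did QKO in naive cells for hAT-Ac (−0.18, and LBRKO −0.039), hAT-Blackjack (−0.12), hAT-Tag1 (−0.14) and hAT-Tip100 (−0.17), and TKO in EpiLCs for hAT-Tag1 (−0.0046). By exact permutation tests, hAT-Ac and hAT-Blackjack in EpiLCs then passed (adjusted p = 0.00414 and 0.0247). With means over subfamily means, hAT-Ac in naive cells turned to −0.13 in LBRKO and −0.18 in QKO, the class to −0.015 in naive TKO and unassigned hAT to 0.0025 in TKO EpiLCs, and by permutation tests in EpiLCs TcMar-Mariner (adjusted p = 0.285) and unassigned hAT (0.530) were lost and hAT-Ac (0.00437) passed. With FordPrefect and Tigger17d, TcMar-Tigger was lost (permutation test, adjusted p = 0.104 in naive cells, 0.132 in EpiLCs), as was its ratio to hAT-Charlie (p = 0.259 and 0.121, TKO differences 0.011 and 0.11). With a library left out the permutation adjusted p of TcMar-Tc2 ranged from 0.0128 to 0.0797 in naive cells and from 0.000866 to 0.0624 in EpiLCs, and within the class in EpiLCs from 0.00789 to 0.289 for TcMar-Tc2, 0.0198 to 0.370 for TcMar-Tigger, 0.00889 to 0.157 for hAT-Blackjack and 0.00465 to 0.0942 for hAT-Tag1.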

Other observations

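A few single DNA copies had very high signal with every antibody. The copy MER5B_dup2566 had a mean relative LAP2B level of 12.7 in naive WT and of 13.6 (LBRKO), 108 (TKO) and 224 (QKO) in the mutants, against 332 in naive WT IGG. Its LMNB1 level was 9.71. This copy had more IGG than LAP2B in every naive group. The copy URR1A_dup8149 had 52.8 in naive WT and 58.2 (LBRKO), 74.7 (TKO) and 53.5 (QKO) in the mutants, with 38.3 in IGG and 45.0 in LMNB1. Of the DNA copies, 490 lay in the top 1% of WT IGG over all TE copies.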
